A study of Mus musculus with 2 samples.

Results

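Lfng, Osr2 and Pou3f3 are 3 genes of the early nephron, chosen by symbol from the 10617 distinct gene symbols of the deposited expression table because their densities were lower in the knockout library. The table compares Six2-expressing nephron progenitor cells, sorted from mouse kidneys at embryonic day 15.5, between 2 genotypes with 1 library each. The wild-type group (WT) was Six2CreGFP+;p53+/+ and the knockout group (KO) was Six2CreGFP+;p53f/f, so both carried the transgene that puts Cre recombinase and GFP under Six2 control, on a mixed CD1 and C57BL background. Cre deletes the floxed p53 gene, Trp53, in the KO cells, and how many embryos went into each library is not given in the sources used here.

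When a nephron progenitor is induced, it leaves the cap mesenchyme and forms a polarised ball of epithelium, the renal vesicle, which then elongates into an S-shaped body with proximal, medial and distal parts. Lfng codes for lunatic fringe, a Golgi enzyme that adds a sugar to Notch receptors and so alters which ligands they answer to, and Notch signalling is needed for the proximal nephron. Osr2 codes for a zinc finger transcription factor of the odd-skipped family that is best known from palate and tooth development and is also made in the embryonic kidney. Pou3f3, also called Brn1, codes for a POU domain transcription factor of the distal early nephron that is needed for the loop of Henle.

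The start regions of the genes are shown because the 3 genes were lower together. RefSeq, on GRCm38.p6, gave an entry for 2 of the 3 genes, Lfng and Pou3f3, and Osr2 is named only. Each stretch runs 5′ to 3′ over 300 bases, from 250 before to 50 after the start site, and capitals mark a CCAAT box, an E-box (CACGTG) or the core of the site of RBPJ, the DNA-binding partner of Notch (GTGGGAA), all searched on both strands with TATAAA. The Lfng stretch is chr5:140607091-140607390 on the plus strand, and the Pou3f3 stretch is chr1:42695518-42695817 on the plus strand.
Lfng: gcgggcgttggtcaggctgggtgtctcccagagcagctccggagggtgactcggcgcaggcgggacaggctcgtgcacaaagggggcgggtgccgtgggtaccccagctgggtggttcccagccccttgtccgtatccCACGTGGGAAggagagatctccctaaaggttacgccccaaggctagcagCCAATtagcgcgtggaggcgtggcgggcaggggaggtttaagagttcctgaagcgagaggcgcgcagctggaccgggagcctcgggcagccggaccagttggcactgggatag
Pou3f3: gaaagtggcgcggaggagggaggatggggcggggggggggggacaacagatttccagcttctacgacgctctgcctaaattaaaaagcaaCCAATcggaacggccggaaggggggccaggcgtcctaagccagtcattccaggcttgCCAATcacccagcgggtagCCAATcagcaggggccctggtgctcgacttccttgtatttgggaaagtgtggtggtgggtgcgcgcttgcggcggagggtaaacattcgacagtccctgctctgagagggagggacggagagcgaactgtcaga

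The Lfng stretch held 1 E-box, beginning 112 bases before the start site, and 1 RBPJ core, beginning 109 bases before it, and these overlap in the letters GTG. It also held 1 CCAAT box, 63 bases before the start. Pou3f3 held 3 CCAAT boxes, beginning 160, 103 and 84 bases before its start, and neither an E-box nor an RBPJ core. Among 32851 RefSeq promoters of the same length, 37.4% held CCAAT, 7.15% the E-box and 6.38% the RBPJ core. Neither stretch held TATAAA, which 13.6% of the promoters did, or a p53 half-site, which 8.36% did. Both were rich in G and C, at 66.7% in Lfng and 60.3% in Pou3f3 against a median of 52.7% over all promoters. A match is a run of letters and not a measured binding site, and the absence of one speaks only of this window.

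Read density is given as RPKM, reads per kilobase of exon scaled to the depth of the library. For Trp53 itself it was 33.9 RPKM in the WT library and 5.38 in the KO library. Six2 was at 482 and 509 RPKM, and Cited1, a marker of the least committed progenitors, at 23.6 and 16.1. The deposited densities corresponded to about 91200000 reads in WT and 85600000 in KO, a depth read from the values. Only genes that passed the authors' own corrected p-value limit are in the table, where the largest corrected p-value is 0.0499827, so shares given below are shares of such genes. With 1 library per genotype there is no replicate check: no test was made, every difference describes these libraries, and the intervals below cover counting error only.

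Lfng had a density of 11.4 RPKM in WT and 5.87 in KO. The KO library therefore held 0.517 of the WT density (95% exact interval 0.481 to 0.555), a density 1.94-fold lower. These densities correspond to 2365 reads in WT and 1147 in KO, whole numbers in both libraries when counted over the 2282 exon bases of 1 annotated transcript. The deposited span of Lfng (ENSMUSG00000029570) is chromosome 5, bases 140607341 to 140615543, plus strand, in build GRCm38, and no other annotated gene overlaps it.

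Osr2 was the most abundant of the 3, at 15.3 RPKM in WT and 8.27 in KO. Its ratio was 0.542 (95% exact interval 0.505 to 0.581), a density 1.85-fold lower in KO, from 2400 and 1221 reads over the 1723 exon bases of 1 transcript. The gene (ENSMUSG00000022330) spans bases 35296098 to 35303304 of chromosome 15, plus strand, also with no overlapping annotated gene.

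Pou3f3 was the least abundant, at 4.16 RPKM in WT and 1.93 in KO. Its ratio of 0.464 (95% exact interval 0.418 to 0.516) came from 1163 and 507 reads, a density 2.15-fold lower in KO. Pou3f3 (ENSMUSG00000045515) is a gene of 1 exon, deposited with the span 42697146 to 42700207 of chromosome 1, plus strand, which is 3062 bases. GENCODE vM21 draws the same exon from 42695768 to 42703176, or 7409 bases, so reads outside the shorter span were not counted. A sense long non-coding gene, AC122898.1, spans Pou3f3 in that annotation, but its exons lie outside it.

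The order of the densities, Osr2 above Lfng above Pou3f3, was the same in both libraries. In WT, Lfng stood at 2.73 times the density of Pou3f3, and in KO at 3.04 times. The 3 ratios of KO to WT had overlapping counting intervals in every pair, by the least between Osr2 and Pou3f3. In the authors' deposited table, which carries a further library scaling, Lfng was 1.86-fold, Osr2 1.77-fold and Pou3f3 2.07-fold lower in KO, each with a p-value listed as 0. Those p-values compare 2 libraries, not 2 genotypes.

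**Figure D1:**
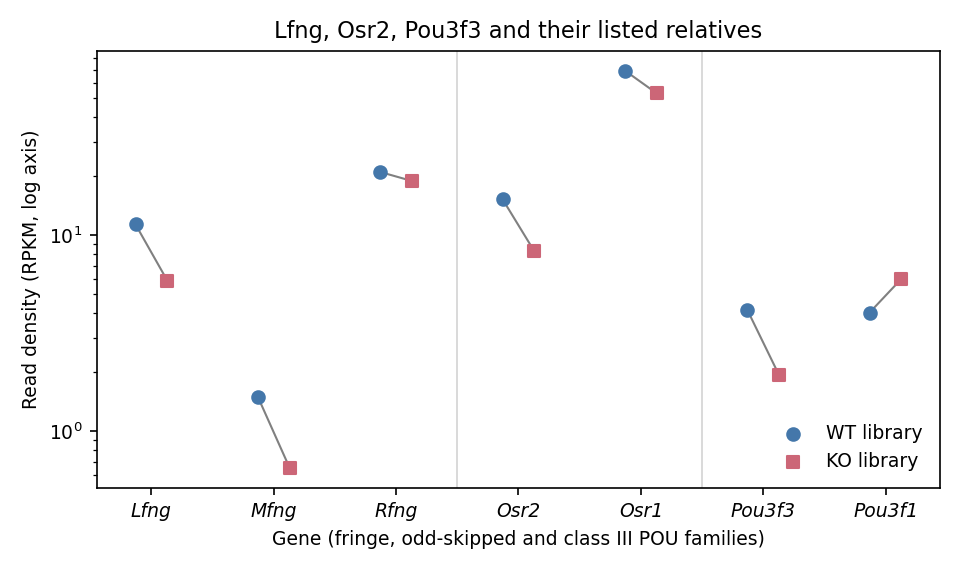
Read density in RPKM, on a log axis, of Lfng, Osr2, Pou3f3 and the listed genes of their families, with the WT library as circles and the KO library as squares. The 3 genes drop from 11.4, 15.3 and 4.16 RPKM in WT to 5.87, 8.27 and 1.93 in KO, while Pou3f1 goes from 4.04 to 5.997 and Rfng from 21.03 to 18.9; single libraries have no error bars.

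On the scale used for all genes, log2 of the density plus 1, KO minus WT was -0.85 for Lfng, -0.81 for Osr2 and -0.82 for Pou3f3. All 3 passed a size rule of 1.5-fold on this scale, as did 5.49% of the genes of the table in the lower direction. The added 1 shrinks the differences of low genes: by the plain ratio of densities, 22.6% of genes were at least 1.5-fold lower. Counts at 1.5-fold below are on the scale with the added 1 unless the ratio is named. The members were chosen for this difference, so nothing is read from that share. The median of all genes was -0.11, and 63.9% of genes were lower in KO by any amount. Lfng had 270 genes with a more negative difference, Pou3f3 292 and Osr2 297.

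Genes of like density set these values in context, since the size rule is met more often at low density. Of 3343 genes within 2-fold of the mean density of Lfng, 4.19% were at least 1.5-fold lower in KO. The share was 3.38% of 3427 genes around Osr2 and 9.67% of 2181 genes around Pou3f3. Lfng and Osr2 lay above the median density of the table, 7.30 RPKM, where 2.41% of genes were at least 1.5-fold lower and 0.659% at least 1.5-fold higher, and Pou3f3 lay below it. With a pseudocount of 4 in place of 1, the Pou3f3 difference was -0.46, short of 1.5-fold.

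**Figure D2:**
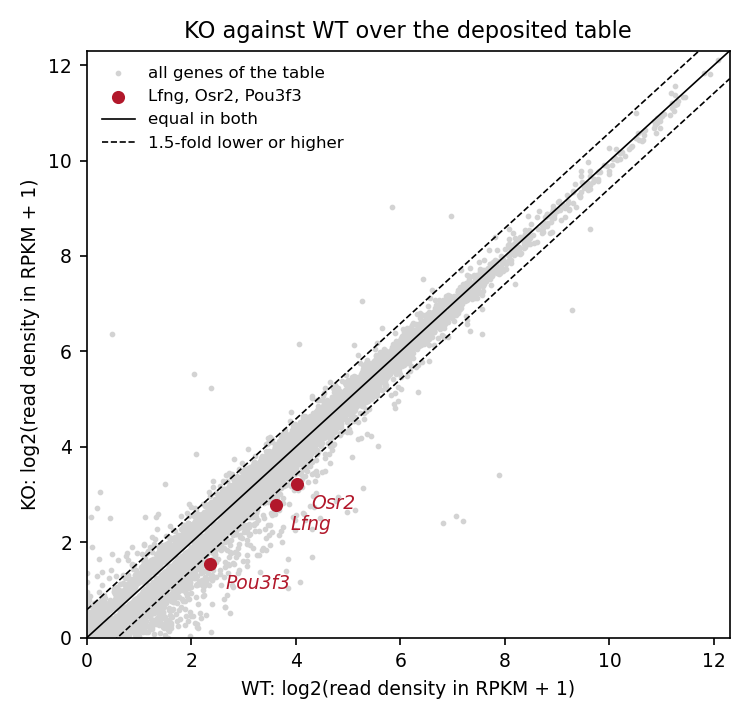
Each point is a gene of the deposited table, with log2 of the density in RPKM plus 1 in WT on the horizontal axis and in KO on the vertical axis. Lfng, Osr2 and Pou3f3 lie below the lower dashed line, which marks 1.5-fold lower in KO, as do 5.49% of all genes.

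The libraries differed with base composition, so each gene was also set against genes like it. GC content was 58.8% in the longest Lfng transcript, 53.6% in that of Osr2 and 51.1% in that of Pou3f3. Genes in the same bins of GC content and length had a median difference of -0.18 for Lfng, -0.18 for Osr2 and -0.080 for Pou3f3. After subtraction of the bin median, with the overall median added back, the differences were -0.78, -0.74 and -0.85.

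**Figure D3:**
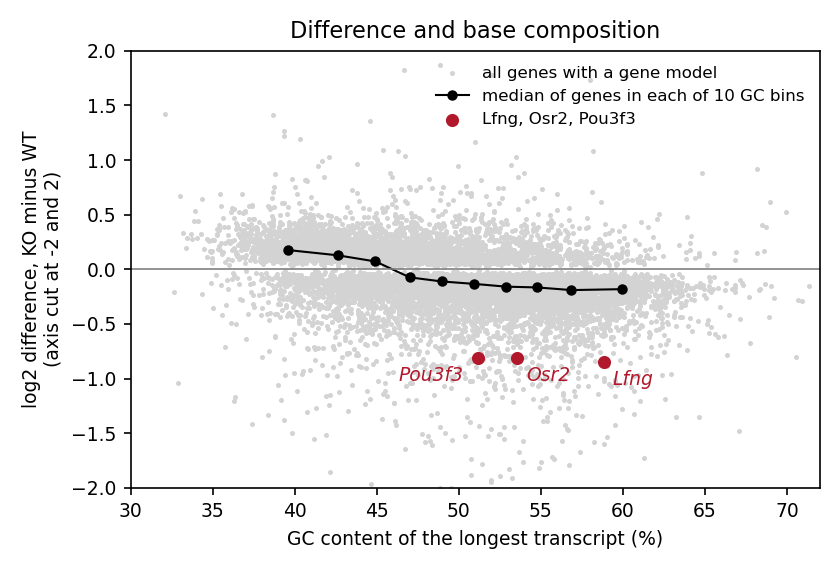
GC content of the longest transcript in percent against the log2 difference, KO minus WT, for all genes with a gene model, with axes that leave out 31 genes. The black line joins the medians of 10 bins of GC content, which run from 0.18 in the lowest bin to -0.18 in the highest, and the 3 genes lie well under it at -0.85, -0.81 and -0.82.

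The families of the 3 genes were not uniform. Manic fringe, Mfng, had 1.498 RPKM in WT and 0.65 in KO. This is a ratio of 0.434 (95% exact interval 0.358 to 0.523) from 388 and 158 reads. Its log2 difference of -0.60 passed the 1.5-fold limit of 0.58 but was short of it under both library scalings. It was -0.53 when centred on the median of the denser genes and -0.58 with the authors' scaling. After the GC correction it was also short, at -0.53. With a pseudocount of 4 it was -0.24, but at the WT density of Mfng no KO density could reach 1.5-fold on that scale. Radical fringe, Rfng, the most abundant fringe in both libraries, had densities of 21.03 and 18.9 RPKM. The ratio of Rfng was 0.900 (95% exact interval 0.862 to 0.938), nearer to 1 than that of Lfng.

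Osr1, the other odd-skipped gene and a regulator of kidney mesenchyme from its earliest stages, had 69.2 RPKM in the WT library and 52.95 in the KO library. Its ratio of 0.765 (95% exact interval 0.745 to 0.786) lay above the interval of Osr2. Pou3f1, a relative of Pou3f3 known from myelinating glia and skin, went the other way, at 4.04 and 5.997 RPKM, with a ratio of 1.49 (95% exact interval 1.38 to 1.61). In WT the densities of Pou3f3 and Pou3f1 were close, and in KO Pou3f1 was the higher. The 2 other class III POU genes fixed in the list, Pou3f2 and Pou3f4, are not analysed here.

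Around Lfng, the Notch pathway showed mostly small differences. Without Lfng, 38 genes of the pathway lists were in the table: 24 were lower in KO and 14 higher, and on the log2 scale with the added 1 Mfng alone reached 1.5-fold, in the lower direction. By the plain ratio 4 genes did, all lower: Mfng, Dll4, Hes5 and Neurl1b, against 22.6% of all genes. Their median log2 difference was -0.12, beside -0.11 over all genes. A difference of 1.5-fold higher was reached by 0.951% of genes in the table and by none of these.

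Among the ligands, which sit on the neighbouring cell, Jag1 had 10.4 RPKM (WT) and 11.4 RPKM (KO), and Dll1, the ligand of the early proximal nephron, at 3.47 and 2.61. Dll4, a ligand best known from vessels, was near the bottom of the range at 0.301 and 0.0805 RPKM. Of the receptors, Notch2, the one most needed in the nephron, was highest, at 28.7 and 31.1 RPKM. Notch3 had 19.8 and 16.3 RPKM and Notch1 6.86 and 7.71. The receptor list held 2 higher and 2 lower genes. Its median was -0.047, or 0.012 with a pseudocount of 4 and 0.024 when centred on the median of the denser genes.

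The enzymes that add the other sugars of Notch differed little. Pofut1, which adds the fucose that fringes extend, had 12.2 RPKM in the WT library and 11.1 in the KO library. Gxylt1 and Gxylt2, which add xylose, had log2 differences of 0.10 and -0.13, and that of Gxylt1 was -0.11 after the GC correction. Of the 14 listed processing and trafficking genes, 11 were lower, against 63.9% of all genes. After the GC correction 13 were lower, as were 7974 of 10508 genes. None was 1.5-fold lower with the added 1 (5.49% of all genes), and Neurl1b alone was by the plain ratio (22.6%). Adam10, the protease that makes the first activating cut in Notch, was higher, at 68.7 and 89.5 RPKM. Its log2 difference was 0.38, and 0.13 after the GC correction. Numbl, an inhibitor of Notch, had 3.94 and 2.86 RPKM, and the ubiquitin ligase genes Dtx1 11.6 and 8.97, Dtx3 62.6 and 51.7, and Neurl1b 1.20 and 0.765.

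In the nucleus, Rbpj had 19.3 RPKM (WT) and 22.05 RPKM (KO), and the coactivator gene Maml1 had 25.0 and 26.9. The corepressor gene Spen was at 13.3 and 15.5 RPKM, and the histone deacetylase gene Hdac1 at 14.4 and 11.5. The median of these 7 nuclear genes was 0.10, and -0.041 after the GC correction, which also took Rbpj from 0.18 to -0.082.

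Of the 5 Notch response genes in the table, 3 were lower and 2 higher. Hes1, a repressor induced by Notch, was at 22.2 and 28.6 RPKM, and Hey1 at 26.2 and 35.6, log2 differences of 0.35 and 0.43. Heyl, the most abundant, differed by -0.073, at 44.8 and 42.6 RPKM. Hes5, a response gene of the early nephron, was low in both libraries, at 0.765 and 0.320 RPKM, a ratio of 0.419 (95% exact interval 0.276 to 0.613). Nrarp, a feedback inhibitor, was at 6.67 and 5.07 RPKM. Hes1 and Hey1 were thus higher in KO, while Hes5, Nrarp and Lfng, itself a Notch response gene in the segmenting embryo, were lower.

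**Figure D4:**
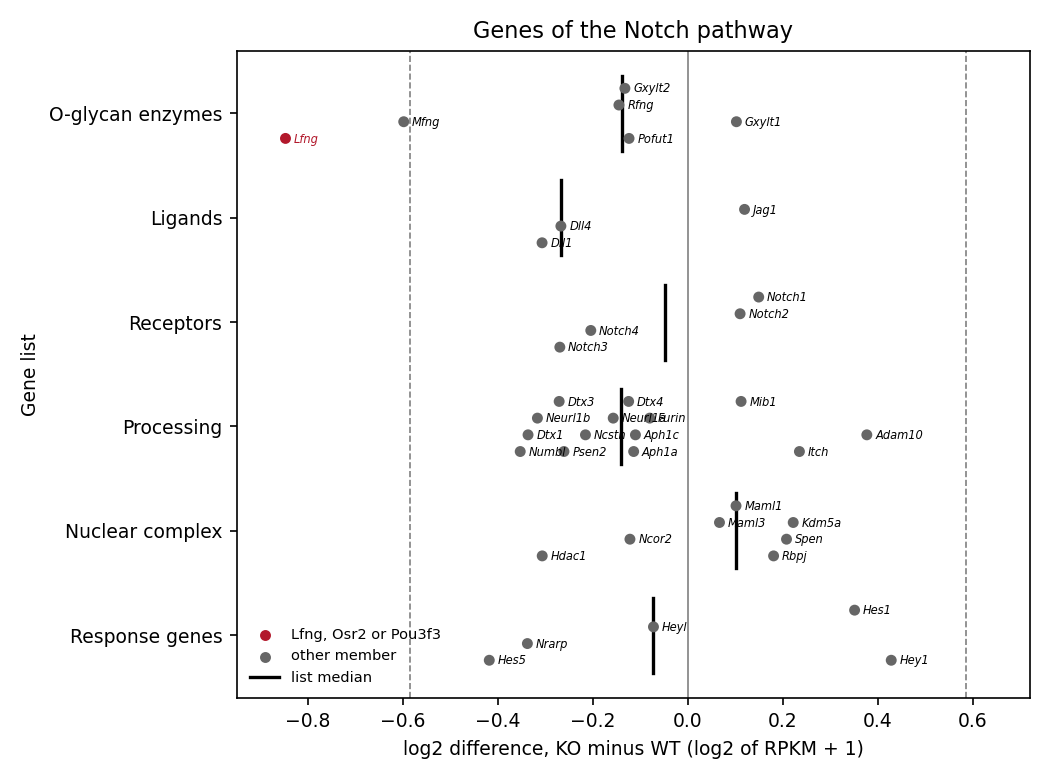
Log2 difference, KO minus WT, of each Notch pathway gene in the table, by list, with the list median as a black bar and dashed lines at 1.5-fold. Lfng at -0.85 and Mfng at -0.60 lie left of the lower line, and the other 37 genes lie between the lines, from Hes5 at -0.42 to Hey1 at 0.43.

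Within the renal vesicle and early nephron list, which holds the 3 genes, 19 of 24 names were in the table. Without Lfng, Osr2 and Pou3f3, 9 of the other 16 were lower and 7 higher, with a median of -0.12. Over all genes of the table, 63.9% were lower and the median was -0.11. Ccnd1, cyclin D1, and Cited2 were the most abundant, at 159 and 174 RPKM and at 84.6 and 108. The list thus held genes on both sides of 0. Named after their values were seen, Emx2, a homeobox gene of the urogenital tract, was at least 1.5-fold lower (7.80 and 4.78 RPKM), and Bmp2, a secreted growth factor gene, was at least 1.5-fold higher (9.95 and 15.6).

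Of the 13 distal tubule and loop genes, the segment in which Pou3f3 acts, 11 were lower, against 63.9% of all genes. All 11 were at least 1.5-fold lower by the plain ratio (22.6% of all genes), and 2 with the added 1 (5.49%). These 2 were Irx3, at 2.48 and 1.06 RPKM, and Irx1, at 1.72 and 0.802, both transcription factors of the medial and distal nephron. With a pseudocount of 4 Irx3 fell short of 1.5-fold. Irx1 did too, but at its WT density no KO density could reach 1.5-fold with that pseudocount. Irx1 also fell short under either library scaling and after the GC correction. All 11 that were lower, Irx3 and Irx1 among them, were under the median density of the table, and Cldn10, a claudin of the loop, had 0.888 and 0.298 RPKM. Mecom (3.28 and 3.95 RPKM) and Wnk1 (21.6 and 22.7) were the 2 that were higher, though Mecom was at 0.00 on the log2 scale after the GC correction.

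Of the proximal tubule genes, 14 of 15 were lower, 10 by at least 1.5-fold, with a median of -0.95, where 63.9% of all genes were lower and 5.49% by that size. Slc34a1, the phosphate transporter of the proximal tubule, was at 13.4 and 1.07 RPKM, and Fxyd2, a regulator of the sodium pump, at 18.9 and 2.25. Of 11 podocyte genes, 9 were lower and 3 by at least 1.5-fold, with Podxl, the podocyte surface protein podocalyxin, at 8.99 and 1.59 RPKM. Foxc1 and Foxc2, which progenitors also make, were at 89.99 and 99.7 RPKM and at 77.6 and 73.95 RPKM, and the small difference of Foxc2, -0.069, had the other sign when centred or corrected for GC. The proximal tubule median was thus beyond the -0.85 to -0.81 of the 3 early nephron genes, and the podocyte median of -0.19 was not. With a pseudocount of 4, which shrinks low genes most, the proximal tubule median was -0.48, within the -0.65 to -0.46 of the 3 genes. By the plain ratio the proximal tubule median was 0.150, below the 0.464 to 0.542 of the 3 genes. The 18 nephron progenitor genes were evenly divided, with 9 lower, 9 higher, none past 1.5-fold and a median of 0.0015, or -0.035 after the GC correction.

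Markers of other cell types were lower in the same library. All 13 ureteric bud, 17 endothelial, 11 leukocyte and 10 erythroid genes in the table were lower, as were 18 of 21 stromal genes, 15 of which reached 1.5-fold. Of all genes, 63.9% were lower, and 5.49% by that size. The summed densities of these lists in WT and KO were 63.5 and 46.7 RPKM for ureteric bud, 78.5 and 56.4 for endothelium, 17.4 and 2.90 for leukocytes, 633 and 23.9 for erythroid genes, and 713 and 533 for stroma. Of the 5 neural markers, which bear on the POU genes, 2 were lower and 3 higher, with sums of 6.42 and 6.45 RPKM. No listed marker was at 0 in WT and 1 erythroid gene was at 0 in KO. A single gene carried much of 3 of these sums: Aldh1a2, the retinoic acid synthesis gene, in stroma, Hoxb7 in ureteric bud and Ramp2 in endothelium. Without them the sums were 441 and 247 RPKM for stroma, 32.5 and 18.1 for ureteric bud, and 27.8 and 12.6 for endothelium. The stromal median of -1.05 and the leukocyte median of -0.92 were beyond the differences of Lfng, Osr2 and Pou3f3. With a pseudocount of 4 the leukocyte median was -0.31, smaller than that of each of the 3 genes. That pseudocount shrinks low genes most, and all listed leukocyte genes were under the median density of the table. By the plain ratio the leukocyte median was 0.179, below the ratio of each of the 3 genes. The ureteric bud and endothelial medians were -0.34 and -0.40 on the scale with the added 1. The ureteric bud median ratio, 0.486, was below the ratios of Lfng and Osr2 but not that of Pou3f3. The endothelial median ratio, 0.337, was below the ratios of all 3 genes. Whether RNA from such cells has a part in the values of the 3 genes was not tested, and in sorted bulk RNA fewer cells of a type and less RNA per cell cannot be told apart.

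**Figure D5:**
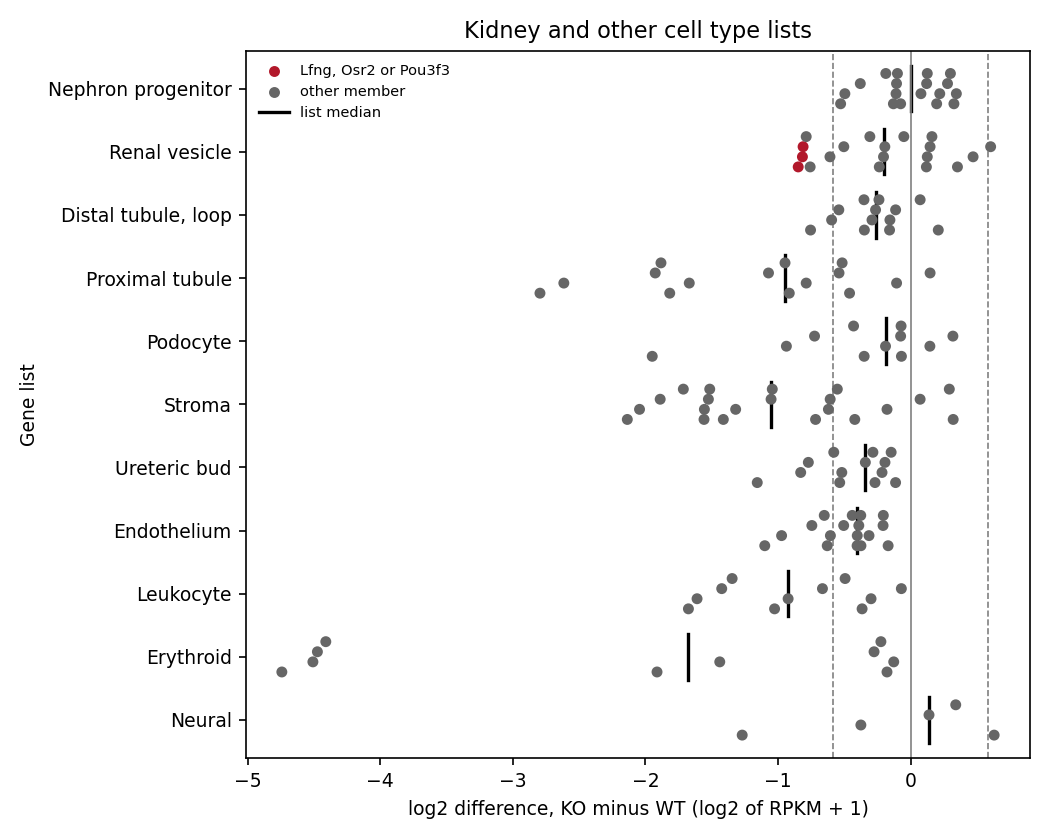
Log2 difference, KO minus WT, of each listed gene in the table, by kidney or other cell type, with the list median as a black bar and dashed lines at 1.5-fold. Lfng, Osr2 and Pou3f3 (red) sit at the left end of the renal vesicle list, whose other 16 genes have a median of -0.12, while the proximal tubule, stroma, leukocyte and erythroid medians are -0.95, -1.05, -0.92 and -1.68.

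The genes with densities most like each member were picked by Euclidean distance over log2 of density plus 1 in the 2 libraries. Only genes typed as protein-coding were ranked, and predicted genes and Riken clones were left out by symbol. Nearest to Lfng were Prkcdbp (distance 0.062), Glipr2 (0.069) and Serpine2 (0.071), the last a secreted protease inhibitor with 10.8 RPKM (WT) and 5.88 RPKM (KO). Nearest to Osr2 was Ccng1 (distance 0.078), cyclin G1, a known p53 target, at 15.3 and 8.79 RPKM, followed by Rps2-ps6 (0.080), whose symbol marks a copy of a ribosomal protein gene and whose reads are uncertain, and the tubulin gene Tubb2a (0.11). Nearest to Pou3f3 were Tekt1 (0.051), Rarg (0.078), a retinoic acid receptor at 4.44 and 1.97 RPKM, and Ube2l6 (0.096). With 2 libraries, such likeness says only that these genes had similar levels and differences.

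Neighbours on the chromosomes did not share the size of the difference. Within 300 kb of Lfng the table held 5 other genes, with log2 differences from -0.20 to -0.039. Ttyh3, which lies 5.0 kb beyond Lfng on the other strand, had 97.5 RPKM in the WT library and 94.9 in the KO library. Around Osr2 lay Stk3, at 10.6 and 12.9 RPKM, and Vps13b, at 3.02 and 2.76. The single neighbour of Pou3f3 in the table was Mrps9, at 22.4 and 20.1 RPKM. None of these 8 neighbours reached 1.5-fold. Of all genes of the table, only 5.49% were that much lower and 0.951% that much higher, so nothing is read from this count.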

How the data were processed

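RNA of sorted cells was sequenced, with a single library for each genotype. The submitters' processing notes name CASAVA 1.8, Novoalign 2.08.02 and FastQC, and the builds GRCm38 and mm10, without their roles. The sources used here do not give the counting rules or the use of strand. Per the file headers, each gene has a read density for either library. The authors also deposited a p-value, its corrected form, an absolute fold ratio and a signed fold, here called a score, below 0 where KO is lower. The deposited density was taken as RPKM from its values, since no header names that unit. Where a gene was at 0 in KO (170 genes) or in WT (75), its fold was a multiple of one step, within 0.01, for 149 and 70 genes, which gave the depths. Reads came out whole in both libraries, within 0.02, for 58.5% of 10504 genes with a GENCODE vM21 model, at the length of all exons or of 1 transcript within the deposited span; other reads are estimates from all exons. The authors' fold ratio equals the ratio of densities multiplied by 1.04.

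The measure was log2(KO + 1) minus log2(WT + 1) in RPKM, which understates folds of low genes, with a size rule of 1.5-fold. For the 8 symbols on more than 1 row, the row with the highest mean density was used. Intervals are exact (Clopper-Pearson) for the ratio of reads. The correction used 10 bins of GC content and 4 of length over 10508 genes. The members, 19 gene lists and rules were chosen with earlier results of these data known. Named genes are the 3 members, their listed relatives, Trp53, Six2 and Cited1. From each list, up to 4 with the largest difference and 2 with the highest density were added. Where 5 or fewer were in the table, all were. The 3 genes nearest each member were also named, leaving out predicted genes, Riken clones and non-coding RNAs by gene type and symbol. For lists of other cell types the text gives counts and sums. Scripts (Python 3.11.15, SciPy 1.17.1) were tested on simulated data. Some genes that this rule names are not reported here.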

Additional observations from a re-analysis of the deposited data

How the results depend on the processing

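The differences of Lfng, Osr2 and Pou3f3 stayed negative under all 6 alternatives run for each, and 12 of those 18 values lay within the counting interval. The others came from the pseudocount: -0.64 for Lfng, -0.65 for Osr2 and -0.46 for Pou3f3 with 4, -1.02 for Pou3f3 with 0.25, and, with none, -0.95 for Lfng and -1.11 for Pou3f3. The 583 genes at least 1.5-fold lower and 101 higher became 1384 and 251 with a pseudocount of 0.25, 2400 and 465 with none, 181 and 32 with 4, 128 and 35 at or over the median density, 42 and 17 at or over the 75th percentile, and 180 and 27 at 2-fold. Of 134 list medians under the alternatives, 119 moved by less than the SD of the list's genes. The exceptions with a pseudocount of 0.25 were the distal tubule (-0.64), ureteric bud (-0.66), endothelial (-0.91) and leukocyte (-1.80) lists, and with 4 the leukocyte list (-0.31). With none they were the distal tubule (-1.38), proximal tubule (-2.74), ureteric bud (-1.04), endothelial (-1.57), leukocyte (-2.48) and erythroid (-4.65) lists. Among genes at or over the median density, the Notch ligand (0.12), Notch response (0.35), distal tubule (0.072) and erythroid (-4.49) medians moved, since few members remained. At that density the renal vesicle median was 0.13 in place of -0.20. Leaving the 3 genes out of their lists, and the ratio without a pseudocount, were chosen after seeing the data. No paired analysis was possible because each genotype has 1 library. Genes outside the table are not analysed here, so counts within lists leave out the members absent from it. Whether those had small differences or few reads is not known.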
